A study of Macaca mulatta with 30 samples.

Results

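The genes described here are the axon guidance ligands and receptors of cortical area 32 of rhesus macaques (Macaca mulatta): the semaphorins with their plexin and neuropilin receptors, the ephrins with their Eph receptors, the Slits with their Robo receptors, and the netrins and netrin-Gs with DCC and the UNC5 receptors. Members were chosen by symbol, and 60 symbols of the 15521 genes in the authors' gene table matched. Of these, 59 reached 10 normalized reads in at least 6 of the 30 libraries. These 59 were among the 12935 genes tested. EPHA1, an Eph receptor, reached 10 in 5 libraries and was left out. Just inside that limit, NTN5 did so in 11 libraries and EFNA4 in 12. EPHA8 did so in 29 and the other members in all 30. PLXND1, EPHB2 and UNC5A were not analysed here because the authors' gene table has no row under those symbols. Area 32 is a medial part of the prefrontal cortex, and each library was total RNA from the dissected area of 1 male animal. All animals drank: they self-administered 4% ethanol for over 12 months at 22 h a day. No ethanol-free animals were among the 30. The submitters' categories rest on intake. Very heavy drinkers (VHD, n = 6) had a daily mean over 3 g/kg, and over 4 g/kg on at least 10% of days. Heavy drinkers (HD, n = 7) took at least 3 g/kg on at least 20% of days. Binge drinkers (BD, n = 7) took at least 2 g/kg on at least 55% of days and had a blood ethanol of at least 80 mg/dl at some time in each year. Low drinkers (LD, n = 10) met none of these. The animals came in 4 cohorts, whose mean ages at the end of drinking were 9.98 years in cohort 4 (n = 9), 7.15 in cohort 5 (n = 8), 7.18 in cohort 7b (n = 5) and 5.7 in cohort 7a (n = 8). Mean ages at the start were 8.24, 5.63, 5.69 and 4.18 years in the same order. VHD animals came from cohorts 5 (4 animals) and 7a (2), and LD animals from cohorts 4 (4), 7b (3) and 7a (3). VHD and LD animals therefore meet only in cohort 7a. Age was given as a cohort mean, so age and anything else that sets the cohorts apart cannot be told apart.

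Axon guidance molecules are secreted or membrane-bound cues that attract or repel growing axons through receptors on the growth cone. Class 3 semaphorins are secreted and act through neuropilins that pair with class A plexins, whereas the membrane semaphorins of classes 4 to 7 mostly bind plexins directly. Ephrins are tethered to the membrane and signal through Eph receptor tyrosine kinases on the neighbouring cell, Slits repel axons through Robo receptors, and netrin-1 attracts through DCC or repels through UNC5 receptors. In the adult cortex the same families are known for roles at synapses and dendritic spines, in myelinating cells and in blood vessels.

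Libraries held 4.39 to 13.99 M reads, recovered from the deposited values, and 6 of them held under 6 M. Neuronal markers were present in all 30 libraries. SNAP25, a synaptic protein of neurons, lay between 13237 and 18435 normalized reads. GAD1, of inhibitory neurons, lay between 2612 and 3731. Striatal genes were present as well, with DRD1 at 289 to 467 and PPP1R1B at 567 to 1165. Values below are upper-quartile normalized reads, given as the lowest, median and highest animal of a group unless stated otherwise. Animals are numbered within their category. Counts of animals above or below a group mean are not adjusted for cohort or category. Levels of different genes are compared only per kilobase of listed exon.

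The families spanned more than 2 orders of magnitude per kilobase, and the members' median lay near that of other genes. It was 105 normalized reads per kb, against 102 over all 12935 tested genes, and 30 of the 59 lay above that all-gene median. EPHA4, a receptor that binds both ephrin classes, was highest at 982 ± 89.0 normalized reads per kb (SD, n = 30). EPHB6, an Eph receptor with an inactive kinase, followed at 622 ± 79.3, then the transmembrane semaphorin SEMA6B at 547 ± 94.4 and the repellent SLIT1 at 492 ± 61.1. Among receptors for semaphorins, PLXNC1, the receptor of SEMA7A, was highest at 346 ± 27.7 per kb and PLXNA3 lowest of the 8 plexins at 73.0 ± 16.8. NRP2 stood at 142 ± 27.6 per kb and NRP1 at 75.2 ± 14.9. Of the 16 semaphorins, the lowest was the secreted SEMA3D at 8.75 ± 2.84 per kb. Among the 7 ephrins, EFNB3, a ligand known for a part in corticospinal wiring in mice, was highest at 179 ± 34.2 and EFNA4 lowest at 7.67 ± 4.14 per kb. EPHA8 was the lowest of the 11 Eph receptors at 4.96 ± 1.62 per kb. Both neuronal Robo receptors, ROBO2 at 214 ± 17.9 and ROBO1 at 188 ± 25.4, stood far above ROBO4, the vascular member, at 21.0 ± 4.74 per kb, and SLIT2 stood at 198 ± 24.1. Netrin levels differed more. NTN4, a secreted basement membrane netrin, reached 105 ± 11.4 per kb, the classical attractant NTN1 stood at 10.8 ± 2.22 and NTN5 at 4.87 ± 2.93. The membrane-anchored netrin-Gs, which bind partners at synapses rather than DCC, were at similar levels to each other (NTNG2 106 ± 23.1, NTNG1 93.2 ± 17.5 per kb). Of the netrin receptors UNC5D was highest at 160.1 ± 17.3, DCC stood at 83.0 ± 10.6 and UNC5B was lowest at 40.0 ± 8.29 per kb. Some listed gene models are short (PLXNA4 has 5 exons over 2.01 kb, EPHA10 has 3), so their levels per kilobase rest on part of the gene.

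**Figure D1:**
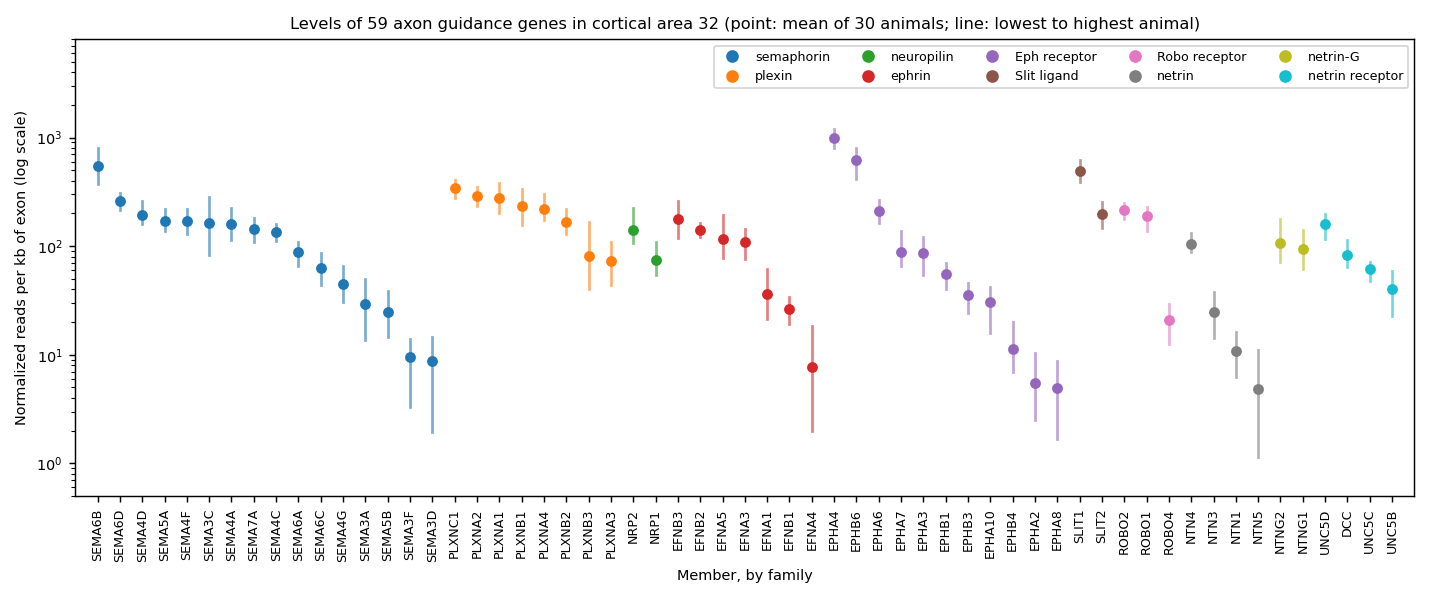
Normalized reads per kilobase of listed exon (log axis) for the 59 members, grouped and coloured by family; points are means over 30 animals and lines run from the lowest to the highest animal. EPHA4 stands highest at 982, and NTN5 lowest at 4.87; lines are longest for the low genes such as SEMA3D, EFNA4 and NTN5.

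Members varied between animals about as much as other genes: the median SD over the 30 animals was 0.25 on the log2(value + 1) scale, against 0.22 over all tested genes. PLXNC1 (0.12), ROBO2 (0.12), EFNB2 (0.12) and EPHA4 (0.13) were among the steadiest. NTN5 (0.84), EFNA4 (0.71) and SEMA3D (0.56), all low, varied most. EPHA8 (0.49), EPHA2 (0.47), SEMA3A (0.47) and PLXNB3 (0.45) followed.

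No member, and none of the 12935 genes, differed between drinking categories at an adjusted p under 0.05 (limma on log2(value + 1), category and cohort in 1 model, Benjamini-Hochberg over all tested genes), and the same held for members with edgeR's quasi-likelihood test on the recovered reads. All statements below on categories are therefore values of differences that did not pass the test. Their p-values set each difference against the spread between animals left after category and cohort. At an unadjusted p under 0.05, VHD against LD gave 2 of 59 members, against 3.5% of all tested genes. Of these members 0 were higher (1.76% of genes) and 2 lower (1.74%). HD against LD gave 8 of 59, against 12.5% of genes, 2 of them higher (5.87%) and 6 lower (6.68%). BD against LD gave 0, against 3.05% of genes (1.56% higher, 1.48% lower). With edgeR the counts were 1 in VHD, 7 in HD and 0 in BD against LD. The VHD and HD shares lie near those of all genes. The VHD count was 0 without HD animal 7 (3.43% of genes) or LD animal 2 (2.49%), and the HD count was 4 without HD animal 7 (11.2%). The VHD, HD and BD comparisons share the LD animals. In direction, 19 of the 59 members lay above 0 in VHD against LD, against 49.9% of all genes, with a median difference of -0.061 against 0.000 for all genes on the log2 scale. With library numbers cut into 4 sets of 8 consecutive numbers and entered as a term, 27 of 59 lay above 0, and the median was -0.0095. The sets were cut by number alone and stand for no stated batch. From set 1 to set 4 there were 1, 2, 5 and 2 LD libraries and 2, 1, 1 and 2 VHD libraries. Set and category therefore cannot be fully told apart, and the cause of the change was not tested. In HD against LD 24 of 59 lay above 0 (50.5% of all genes), and 30 with the library sets (median 0.0083). In BD against LD 34 lay above 0 (50% of all genes). That count was 22 without the 6 libraries under 6 M reads, 26 with a depth term, 42 with array weights and between 25 and 41 with any 1 animal left out.

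**Figure D2:**
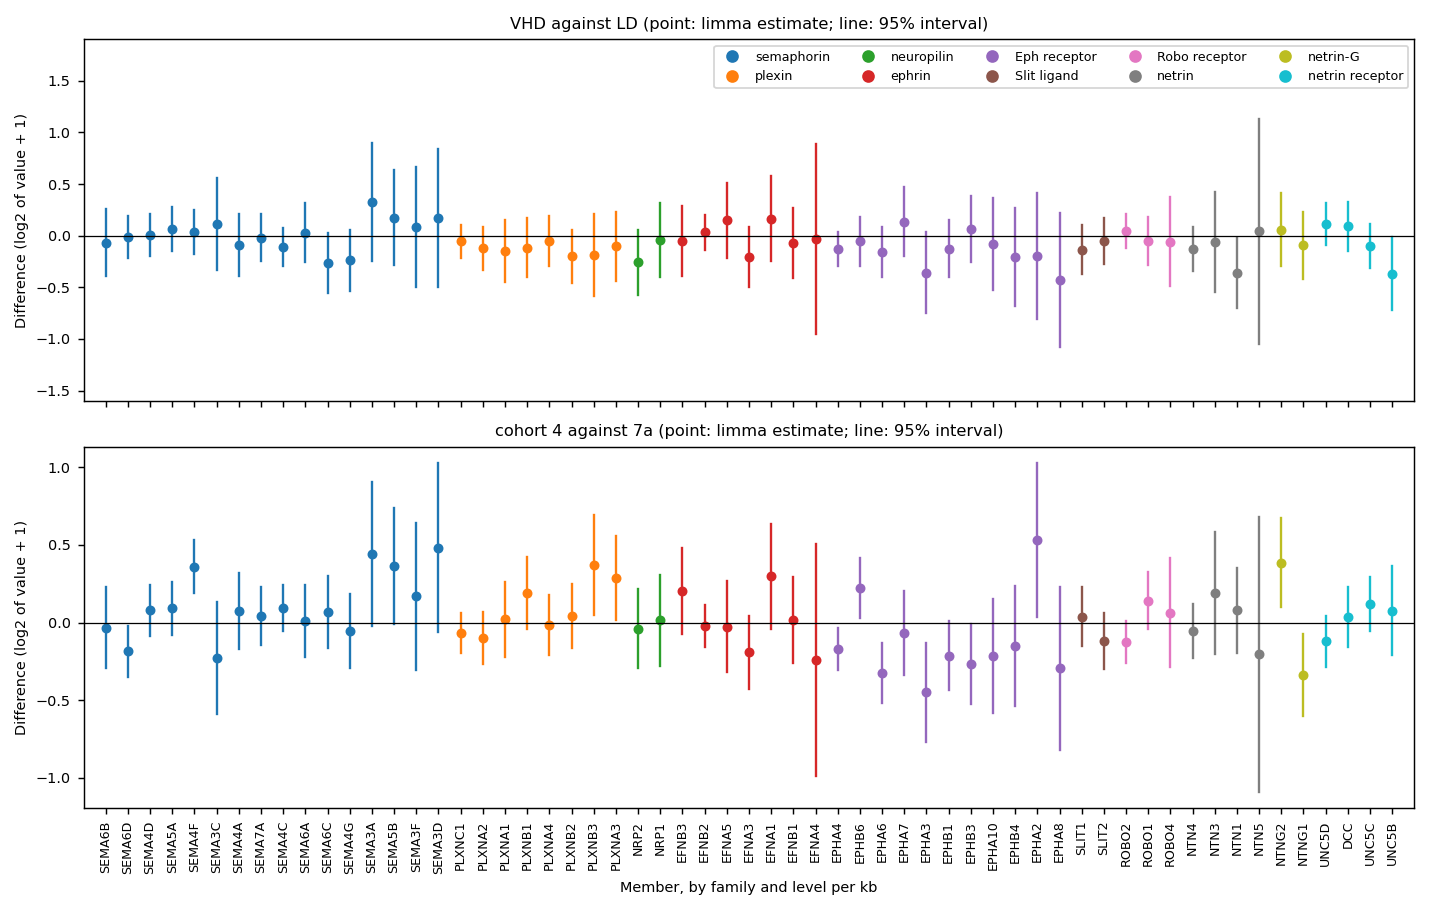
Estimated differences on the log2(value + 1) scale with 95% intervals for the 59 members, ordered and coloured by family, for VHD against LD (top) and cohort 4 against 7a (bottom). In the top panel all 8 plexins lie below 0 and only NTN1 and UNC5B have intervals that leave out 0; in the bottom panel 9 of 11 Eph receptors lie below 0.

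Within the netrin system, the attractant NTN1 had the lowest p of any member in both the VHD and the HD comparison. Its level rests mostly on 1 exon of 4264 bases, which held 80.2% of its reads, and 2 of its 7 exons passed the exon filter. NTN1 measured 36.3, 57.3 and 66.9 in VHD animals, 45.9, 50.5 and 59.9 in HD animals, 54.4, 75.7 and 95.2 in BD animals, and 51.6, 69.3 and 82.7 in LD animals. All 6 VHD animals and all 7 HD animals lay below the LD mean, while the ranges overlapped. In BD animals 2 lay above every LD animal and the rest within the LD range. The difference was -0.37 ± 0.17 in VHD against LD (limma estimate ± SE on the log2 scale, 95% interval -0.70 to -0.028; p = 0.035, adjusted p = 0.948, limma) and -0.42 ± 0.14 in HD against LD (p = 0.00577, adjusted p = 0.317, limma). Within cohort 7a, where both categories occur, the VHD difference was -0.72 (2 VHD and 3 LD animals). It was -0.18 without VHD animal 2 (p = 0.283, limma), and -0.27 with the library sets in the model. UNC5B, a netrin receptor best known from blood vessel endothelium, measured 101, 134 and 178 in VHD animals, 106, 142 and 171 in HD animals, 123.4, 151 and 185 in BD animals, and 84.5, 152 and 221 in LD animals. In VHD animals 5 of 6 lay below the LD mean, and the LD group held both the lowest and the highest animals of all 30. Its difference was -0.37 ± 0.17 in VHD against LD (p = 0.0405, adjusted p = 0.948, limma), and -0.55 within cohort 7a. In bulk tissue, fewer cells of a type and less RNA per cell cannot be told apart. The endothelial marker list had 8 of 11 measured genes below 0 in the same comparison, with a median of -0.13; its part in the UNC5B difference was not tested.

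DCC and UNC5D, netrin receptors of neurons, overlapped across the categories. DCC measured 718, 818 and 1022 in VHD animals, 658, 866 and 1157 in HD animals, 749, 770.4 and 924 in BD animals, and 782, 815 and 1012 in LD animals. UNC5D measured 1073, 1171 and 1456 in VHD animals, 857, 1196 and 1361 in HD animals, 1065, 1085 and 1282 in BD animals, and 906, 1156 and 1341 in LD animals. The VHD difference of UNC5D was 0.11 ± 0.10 (p = 0.26, adjusted p = 0.948, limma) and that of DCC 0.09 ± 0.12 (p = 0.443). For UNC5D it was 0.046 without VHD animal 5, 0.063 without HD animal 5 and 0.18 without BD animal 6. NTNG1 measured 174, 236 and 253 in VHD animals, 172, 219.5 and 308 in HD animals, 150.1, 238 and 341 in BD animals, and 179, 212 and 311 in LD animals. NTNG2 measured 219.9, 277 and 435 in VHD animals, 226, 343 and 377 in HD animals, 275, 341 and 431 in BD animals, and 247, 299 and 544 in LD animals, and for neither netrin-G did the VHD difference exceed its standard error (-0.095 ± 0.16 for NTNG1, 0.056 ± 0.17 for NTNG2). NTN4 measured 282, 312 and 382 in VHD animals, 311, 336 and 374 in HD animals, 289, 341 and 358 in BD animals, and 288, 334 and 419 in LD animals, with VHD animals at -0.13 ± 0.10 (p = 0.237). NTN5 held few reads in any library and measured 2.79, 9.48 and 17.1 in VHD animals, 2.95, 4.16 and 16.1 in HD animals, 2.97, 8.25 and 20.3 in BD animals, and 2.09, 8.58 and 17.7 in LD animals.

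Plexins, the receptors of semaphorins, all lay below 0 in VHD against LD: 0 of 8 estimates were above 0, with a median of -0.12 and a range from -0.20 to -0.053, and none reached an unadjusted p under 0.05. Leaving out any 1 animal kept all 8 below 0; with the library sets 2 of 8 lay above 0, and within cohort 7a 1 of 8. In HD against LD 1 of 8 plexins was above 0 and in BD against LD 6 of 8, but the BD count was 2 without the 6 libraries under 6 M reads, 3 with a depth term and between 1 and 7 with any 1 animal left out. In VHD against LD 17 of 18 mural and fibroblast markers lay below 0 (median -0.21) and 11 of 12 deep-layer neuron markers above 0 (median 0.26). With the mural marker mean or the first principal component of all marker genes in the model, 0 of 8 plexins lay above 0 in VHD against LD. The part of cell composition in the plexin differences was not tested. PLXNB3, a plexin known from oligodendrocytes, measured 293, 426 and 551 in VHD animals, 253, 397 and 482 in HD animals, 385, 560.1 and 744 in BD animals, and 333, 563 and 1041 in LD animals. All 6 VHD and all 7 HD animals lay below the LD mean, 1 LD animal stood at 1041, and the ranges overlapped. These counts are not adjusted for cohort. Cohort 4 gave 4 LD animals, among them the one at 1041, 1 HD animal and no VHD animal. PLXNB3 in cohort 4 was 0.48 above the other cohorts with category in the model. The HD difference was -0.47 ± 0.16 (p = 0.00761, adjusted p = 0.317, limma) and the VHD difference -0.19 ± 0.19 (p = 0.345). With the mean of the 12 oligodendrocyte and myelin markers in the model, the HD difference was -0.45. All 12 of those markers lay below 0 in HD against LD, with a median of -0.25. In VHD against LD 10 of the 12 lay above 0 instead, with a median of 0.22. PLXNB2, a receptor for class 4 semaphorins, measured 838, 941 and 1169.7 in VHD animals, 826, 959.9 and 1068 in HD animals, 844, 1235 and 1402 in BD animals, and 939.7, 1126 and 1309 in LD animals. All 7 HD animals lay below the LD mean (difference -0.25 ± 0.11, p = 0.0243, adjusted p = 0.352, limma). Further plexins overlapped across all categories. PLXNC1 measured 1968, 2435 and 2637 in VHD animals, 2427, 2521 and 2767 in HD animals, 2101, 2371 and 2640.0 in BD animals, and 2189, 2395 and 2892 in LD animals (VHD difference -0.053 ± 0.078). PLXNA3 measured 302, 409.7 and 530.0 in VHD animals, 294, 397 and 615 in HD animals, 429.8, 592 and 666 in BD animals, and 411, 507 and 736 in LD animals (-0.10 ± 0.16). PLXNA4, a partner of neuropilins in class 3 semaphorin signalling, measured 347, 435 and 495 in VHD animals, 372, 402 and 452 in HD animals, 401, 463 and 546 in BD animals, and 385, 438 and 608 in LD animals (-0.054 ± 0.12).

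Of the neuropilins, the ligand-binding partners of class A plexins, NRP2 measured 258, 308 and 318 in VHD animals, 265, 306 and 399 in HD animals, 265, 392 and 543 in BD animals, and 276, 348 and 470.0 in LD animals. All 6 VHD animals lay below the LD mean and 6 of 7 BD animals above it. The difference was -0.26 ± 0.15 in VHD (p = 0.101, adjusted p = 0.948, limma) and 0.17 ± 0.12 in BD (p = 0.163, adjusted p = 0.999, limma). Without BD animal 3 the BD difference was 0.087. NRP1 measured 311, 410.0 and 626 in VHD animals, 315, 419 and 619 in HD animals, 360.5, 439 and 522 in BD animals, and 308, 394 and 604 in LD animals, with a VHD difference of -0.042 ± 0.18 (p = 0.812).

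Semaphorins split evenly, with 9 of 16 above 0 in VHD against LD a median of 0.018 and a range from -0.27 to 0.33. SEMA6C, a transmembrane semaphorin, measured 174, 216 and 278 in VHD animals, 174, 217 and 266 in HD animals, 208, 265 and 338 in BD animals, and 197, 258 and 327 in LD animals. In each of the 2 heavier categories all but 1 animal lay below the LD mean, with differences of -0.27 ± 0.14 in VHD (p = 0.0693, adjusted p = 0.948, limma) and -0.24 ± 0.12 in HD (p = 0.0499, adjusted p = 0.398, limma). SEMA4C, a ligand of PLXNB2, measured 397, 489 and 563 in VHD animals, 402, 443 and 516 in HD animals, 389.6, 463 and 564 in BD animals, and 440.2, 481 and 544 in LD animals. Its difference was -0.19 ± 0.076 in HD (6 of 7 below the LD mean, p = 0.016, adjusted p = 0.329, limma) and -0.08 ± 0.07 in BD, where it was -0.027 without BD animal 1. SEMA3A, the secreted repellent that acts through NRP1, measured 93.6, 193 and 216 in VHD animals, 107, 174 and 266 in HD animals, 77.7, 133 and 281 in BD animals, and 111, 152 and 228 in LD animals. Its estimate of 0.33 ± 0.28 in VHD (p = 0.252, adjusted p = 0.948, limma) was the highest of any member, but turned to -0.024 within cohort 7a, and was 0.62 without VHD animal 5 and 0.16 without BD animal 6. SEMA4D, a PLXNB1 ligand, measured 738, 862 and 943 in VHD animals, 716, 831 and 957 in HD animals, 799.6, 912 and 1059 in BD animals, and 755, 869 and 1175 in LD animals. SEMA7A, the membrane-anchored ligand of PLXNC1, measured 332, 435 and 519.7 in VHD animals, 339.5, 368 and 415 in HD animals, 317, 422 and 500.3 in BD animals, and 336, 407 and 485 in LD animals, with an HD difference of -0.19 ± 0.094 (p = 0.0495, adjusted p = 0.396, limma). The most abundant semaphorin, SEMA6B, measured 1466, 2121 and 2616 in VHD animals, 1769, 2151 and 2454 in HD animals, 1556, 2323 and 2884 in BD animals, and 1773, 2051 and 3119.5 in LD animals, and its VHD difference was -0.07 ± 0.16.

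In BD against LD no semaphorin reached an unadjusted p under 0.05 (limma or edgeR). SEMA6A, a ligand of class A plexins, measured 428, 576 and 682 in VHD animals, 471, 555 and 669 in HD animals, 519, 618 and 705 in BD animals, and 437, 564 and 656 in LD animals (BD difference 0.17 ± 0.11, p = 0.119). SEMA6D measured 409.6, 539 and 565 in VHD animals, 420.2, 533 and 594 in HD animals, 408, 459.8 and 583 in BD animals, and 449, 479 and 581 in LD animals (-0.082 ± 0.077, p = 0.296), and the difference was -0.13 without BD animal 1 and -0.039 without LD animal 9. SEMA3D measured 27.8, 47.1 and 67.0 in VHD animals, 32.4, 51.5 and 92.6 in HD animals, 12.4, 55.9 and 80.8 in BD animals, and 32.9, 58.7 and 87.2 in LD animals, and its BD difference of -0.26 ± 0.26 rested on 1 BD animal at 12.4. It was -0.0035 without that animal and 0.048 within cohort 4, which does not hold that animal. The adjusted p of each of these was 0.999 (limma).

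Ephrins held both members that stood higher in HD animals at an unadjusted p under 0.05. EFNA5, an ephrin-A known from cortical and sensory mapping, measured 80.8, 101 and 117 in VHD animals, 68.9, 119 and 173 in HD animals, 81.3, 96.9 and 125 in BD animals, and 80.7, 95 and 127 in LD animals. In HD animals 6 of 7 lay above the LD mean, and 1 lay below all LD animals. The difference was 0.35 ± 0.15 (p = 0.0275, adjusted p = 0.354, limma), and 0.21 without HD animal 3. EFNB2, a transmembrane ephrin of neurons and arterial endothelium, measured 545, 609.8 and 708 in VHD animals, 626, 657 and 698 in HD animals, 528, 601 and 683 in BD animals, and 546, 596 and 709.9 in LD animals. All 7 HD animals lay above the LD mean within the LD range, with a difference of 0.14 ± 0.07 (p = 0.0483, adjusted p = 0.395, limma). HD libraries differed from LD libraries in more than drinking. The first 8 library numbers held 4 of 7 HD libraries and 1 of 10 LD libraries. Mural and fibroblast markers summed to 3614, 4710 and 11979 in HD against 4986, 7492 and 10217 in LD animals, 16 of 18 of them below 0. None of those 18 was at 0 in every library. With the library sets EFNA5 was 0.22 and EFNB2 0.091, and 3 of the 59 members instead of 8 had an unadjusted p under 0.05, while the share of all genes was 4.61%. With the mural marker mean in the model EFNA5 was 0.16 and EFNB2 0.15, and the count was 3 as well, beside 5.04% of all genes. Of the 7 ephrins 3 lay above 0 in VHD against LD, and 3 in HD against LD. EFNB3, the most abundant, measured 375, 549.7 and 613 in VHD animals, 468, 548 and 753 in HD animals, 507, 559.5 and 686 in BD animals, and 430.4, 545 and 832 in LD animals. EFNA4 measured 5.54, 7.69 and 12.8 in VHD animals, 2.49, 6.18 and 23.1 in HD animals, 3.69, 7.56 and 19.4 in BD animals, and 3.49, 11.8 and 18.3 in LD animals.

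Of the Eph receptors, 2 of 11 lay above 0 in VHD against LD, with a median of -0.13 and a range from -0.43 to 0.14. Within cohort 7a 5 of 11 did. EPHA3, a receptor for ephrin-As, measured 138, 199 and 277 in VHD animals, 149, 202 and 308 in HD animals, 154, 207 and 293 in BD animals, and 139, 243 and 291 in LD animals. Its difference was -0.36 ± 0.19 in VHD (4 of 6 below the LD mean, p = 0.0754, adjusted p = 0.948, limma). EPHA7, an ephrin-A receptor, measured 439.8, 613 and 785 in VHD animals, 439, 641 and 908 in HD animals, 439.9, 556 and 766 in BD animals, and 482, 535 and 645 in LD animals, with 5 of 6 VHD animals above the LD mean and a difference of 0.14 ± 0.16 (p = 0.411, adjusted p = 0.948, limma). It was 0.074 without HD animal 2, 0.081 without VHD animal 3, 0.087 without BD animal 6, 0.21 without VHD animal 4 and 0.21 without HD animal 5. EPHA4, the most abundant member, measured 3084, 3551 and 4109 in VHD animals, 3388, 3457 and 4358 in HD animals, 3183, 3472 and 3859.9 in BD animals, and 2919, 3691 and 3994 in LD animals, and its group medians lay close together. EPHB6 measured 1959.9, 2476 and 2931 in VHD animals, 2152, 2472 and 3021 in HD animals, 1685, 2650.4 and 2861 in BD animals, and 2167, 2632 and 3227 in LD animals. EPHA8, the lowest receptor, measured 8.3, 19 and 33.5 in VHD animals, 14.1, 24.9 and 33.5 in HD animals, 14.1, 30.0 and 35.7 in BD animals, and 13.4, 23.5 and 43.4 in LD animals.

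No Slit or Robo reached an unadjusted p under 0.05 in VHD, HD or BD against LD (limma). SLIT1 measured 3001, 3298 and 4644 in VHD animals, 3091, 3646 and 4285 in HD animals, 2889.6, 3852 and 4199 in BD animals, and 3116, 3708 and 4501 in LD animals. SLIT2 measured 721, 942 and 1065 in VHD animals, 855, 1010.3 and 1249 in HD animals, 836, 1021 and 1097 in BD animals, and 847, 988 and 1119 in LD animals. The VHD differences were -0.13 ± 0.11 for SLIT1 and -0.053 ± 0.11 for SLIT2. ROBO1, the receptor of both, measured 875, 1039 and 1312 in VHD animals, 929, 1278 and 1446 in HD animals, 973, 1229.9 and 1439 in BD animals, and 1060.3, 1183 and 1419 in LD animals, and HD against LD gave 0.13 ± 0.095 (p = 0.186, adjusted p = 0.567, limma), and 0.073 without HD animal 6. ROBO2 measured 1697, 1854 and 2164 in VHD animals, 1567, 1968 and 2067 in HD animals, 1654, 1835 and 2092 in BD animals, and 1539.5, 1841 and 2044 in LD animals and was among the least variable members. The endothelial ROBO4 measured 49.6, 69.9 and 109 in VHD animals, 49.9, 74.2 and 94.5 in HD animals, 73.9, 89.9 and 113 in BD animals, and 48.1, 75.7 and 97.2 in LD animals, with 6 of 7 BD animals above the LD mean and a BD difference of 0.30 ± 0.16 (p = 0.0794, adjusted p = 0.999, limma).

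**Figure D3:**
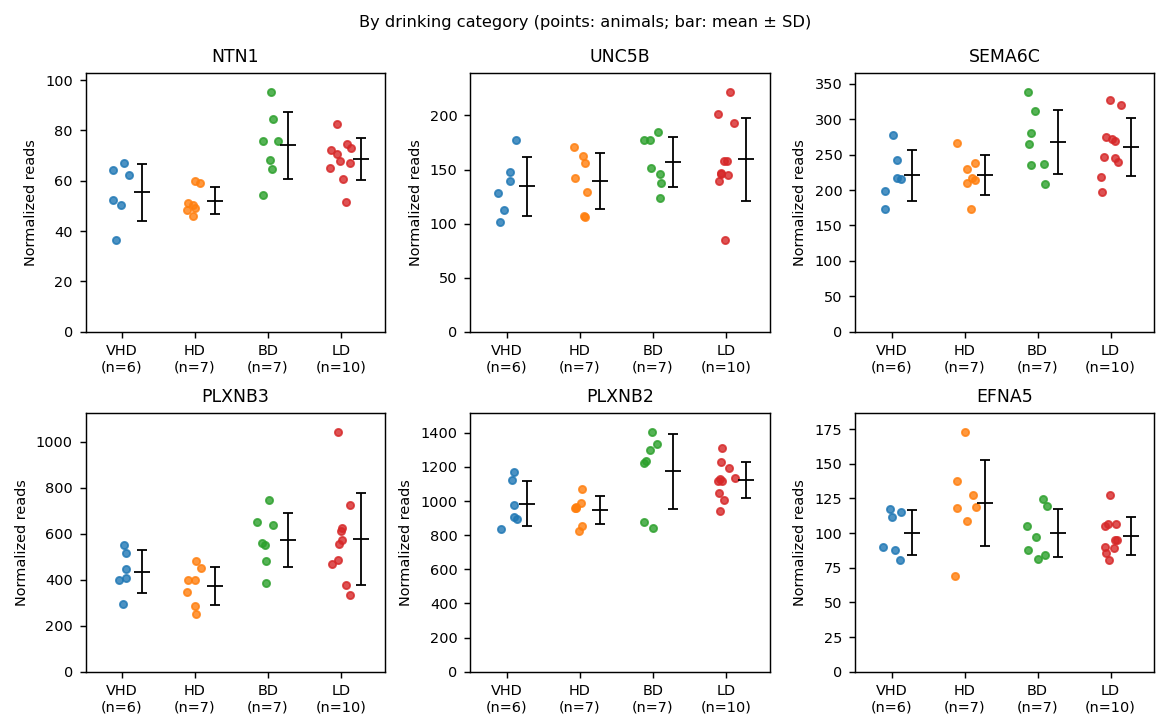
Normalized reads of NTN1, UNC5B, SEMA6C, PLXNB3, PLXNB2 and EFNA5 in each animal, by drinking category, with the mean and SD as bars; each vertical axis starts at 0. All 13 VHD and HD animals lie below the LD mean for NTN1 and PLXNB3, without adjustment for cohort, and the categories overlap in every panel.

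Scored as equal steps from LD through BD and HD to VHD, no member passed the adjusted test (0 of 59 and 0 genes with limma; edgeR gave 4 members at an unadjusted p under 0.05). At an unadjusted p under 0.05 the trend gave 3 members, all with a negative slope, against 6.18% of all genes. Of all genes, 3.06% had a negative and 3.12% a positive slope at that p. The 3 members were NTN1 at -0.14 ± 0.056 per step (p = 0.0157), UNC5B at -0.12 ± 0.053 (p = 0.0277) and SEMA6C at -0.097 ± 0.045 (p = 0.0384), with an adjusted p of 0.745 each (limma). A negative slope here was not a fall at every step. The BD medians of NTN1 and SEMA6C lay above their LD medians, and NTN1 was -0.42 in HD and -0.37 in VHD against LD. PLXNB2 followed at -0.082 ± 0.041 (p = 0.0558). In the other direction, EFNA5 gave 0.08 ± 0.058 per step, SEMA3A 0.11 ± 0.09, UNC5D 0.037 ± 0.031 and EPHA7 0.049 ± 0.051, with p from 0.18 to 0.344. Single animals moved several of these. EFNA5 was 0.033 without HD animal 3, SEMA3A 0.052 without BD animal 6 and 0.19 without VHD animal 5, UNC5D 0.018 without VHD animal 5, and SEMA6C -0.061 without HD animal 7. All 8 plexins and all 4 netrins lay below 0; with any 1 animal left out, 0 to 1 plexins and 0 to 2 netrins lay above it. With the library sets 2 of 8 plexins lay above 0. Altogether 18 of 59 members lay above 0, against 49.9% of all genes; with the library sets this became 29 of 59. Across any difference between categories, 2 members had an unadjusted p under 0.05, against 5.62% of genes: NTN1 (p = 0.0106) and PLXNB3 (p = 0.0409), followed by EPHA6 (0.053) and NRP2 (0.0547). Their adjusted p was 0.861 (limma).

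Between cohorts, too, no member or gene passed the adjusted threshold (limma). Cohort 4, with the highest mean age, against cohort 7a, with the lowest, gave 12 of 59 members at an unadjusted p under 0.05, against 9.15% of all genes. Of these 6 were higher (4.94% of genes) and 6 lower (4.21%), and 32 of 59 members lay above 0 (51.8% of genes). All cohorts together gave 7 of 59 (8.04% of genes), and cohort 4 against the others 11 of 59 (7.78% of genes), 7 higher (3.91%) and 4 lower (3.87%), with 34 of 59 above 0 (50.1%). With edgeR the counts were 10 for cohort 4 against 7a, 7 over all cohorts and 10 for cohort 4 against the others. The semaphorins lay mostly above 0 (12 of 16, median 0.076) and the Eph receptors mostly below (2 of 11 above 0, median -0.21), and that count was 2 with any 1 animal left out. The semaphorin count was 8 of 16 without the 6 libraries under 6 M reads, 4 of which belong to cohort 4, with a median of -0.018; with the first principal component of all marker genes it was 8 as well (median 0.0019). For the Eph receptors these counts were 2 and 3 of 11. Over all members, 21 of 59 lay above 0 without those 6 libraries in cohort 4 against 7a (median -0.067), and 19 of 59 in cohort 4 against the others (median -0.069), where the depth term and the marker component each gave 28. With the library sets the median in cohort 4 against 7a was -0.012, and with array weights -0.017.

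SEMA4F, a transmembrane semaphorin, had the lowest p of any member. SEMA4F measured 636, 839 and 966 in cohort 4 and 699.5, 764 and 815 in cohort 5 animals, 721, 739.6, 749, 764 and 884 in the 5 animals of cohort 7b, and 565, 617 and 843 in cohort 7a animals. All 5 and all 8 animals of cohorts 7b and 5, and 8 of 9 in cohort 4, lay above the cohort 7a mean, although the ranges overlapped. The difference was 0.36 ± 0.085 in cohort 4 against 7a (95% interval 0.19 to 0.53, p = 0.000181, adjusted p = 0.147, limma), with values of 0.32 to 0.41 when any 1 animal was left out. Across all cohorts p was 0.00123 (adjusted p = 0.291, limma). In cohort 4 against the other cohorts together, the SEMA4F difference was smaller, at 0.19 ± 0.073 (p = 0.0128, adjusted p = 0.481, limma).

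Of the 6 members lower in cohort 4 at an unadjusted p under 0.05, 4 were Eph receptors, as were 2 of the 6 higher ones. EPHA6, an ephrin-A receptor, measured 261, 279 and 319.6 in cohort 4 animals, 246, 323 and 405 in cohort 5, 279, 286, 322, 333 and 376 in cohort 7b and 291, 349 and 407 in cohort 7a animals. All 9 cohort 4 animals lay below the cohort 7a mean and within a narrow band, while cohort 5 animals spread more widely. The difference was -0.32 ± 0.095 (p = 0.00195, adjusted p = 0.236, limma). EPHA4 measured 2919, 3424 and 3662 in cohort 4 and 3411, 3671 and 4109 in cohort 7a animals, again with 9 of 9 below the cohort 7a mean (-0.17 ± 0.066, p = 0.0147, adjusted p = 0.418, limma). EPHA3 measured 139, 199 and 253 in cohort 4 and 175, 250.3 and 308 in cohort 7a animals, with 8 of 9 below (-0.45 ± 0.16, p = 0.0076, adjusted p = 0.345, limma). The higher ones were EPHB6 and EPHA2. EPHB6 measured 2293, 2686 and 3227 in cohort 4 and 1685, 2389 and 3021 in cohort 7a animals, with a difference of 0.22 ± 0.094 (adjusted p = 0.464, limma), which was 0.11 without BD animal 1. EPHA2, a low member named after its values were seen, measured 19, 25.9 and 41.4 in cohort 4 and 10.0, 18.6 and 22.3 in cohort 7a animals. Its difference of 0.53 ± 0.24 (p = 0.0365, adjusted p = 0.515, limma) was the highest of the 59.

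The netrin-Gs lay on opposite sides. NTNG2 measured 269.6, 347 and 544 in cohort 4 and 226, 277 and 343 in cohort 7a animals, 7 of 9 above the cohort 7a mean, with a difference of 0.39 ± 0.14 (p = 0.00996, adjusted p = 0.368, limma). NTNG1 measured 150.1, 212 and 248 in cohort 4 and 207, 239.7 and 311 in cohort 7a animals, 8 of 9 below, with a difference of -0.34 ± 0.13 (p = 0.0143, adjusted p = 0.415, limma). Of the plexins, PLXNB3 measured 449.7, 624 and 1041 in cohort 4 and 348, 444 and 723 in cohort 7a animals, 8 of 9 above (0.37 ± 0.16, p = 0.0251, adjusted p = 0.464, limma), and against the other 3 cohorts together the difference was 0.48 ± 0.13 (p = 0.00113, adjusted p = 0.325, limma). The same comparison gave 0.28 for NTNG2, -0.25 for NTNG1, -0.25 for EPHA6, -0.33 for EPHA3, -0.16 for EPHA4 and 0.16 for EPHB6. Each of these was smaller in size than against cohort 7a. PLXNB1, a SEMA4D receptor, measured 1442, 1948 and 2447 in cohort 4 and 1374, 1566 and 2218 in cohort 7a animals (p over any cohort 0.0182, adjusted p = 0.509, limma). The other members at an unadjusted p under 0.05 in cohort 4 against 7a were PLXNA3 at 0.29 ± 0.13, EPHB3 at -0.27 ± 0.13 and SEMA6D at -0.18 ± 0.081.

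Myelin markers stood higher in cohort 4 as well. Oligodendrocyte and myelin markers summed to 4433, 7407 and 21834 in cohort 4 and to 4215, 5485 and 7251 in cohort 7a animals; all 12 lay above 0, with a median of 0.69, and 9 had an unadjusted p under 0.05. The deep-layer neuron markers summed to 4702, 5122 and 5550 in cohort 4 and to 4269, 4602 and 5009 in cohort 7a animals, 10 of 12 above 0. Of the mural and fibroblast markers 11 of 18 lay below 0, with a median of -0.26. With the oligodendrocyte marker mean in the model, 10 members instead of 12 (7.92% of all genes) had an unadjusted p under 0.05, and PLXNB3 was 0.33, SEMA4F 0.33 and EPHA6 -0.26. With the first principal component of all marker genes 4 members did, beside 5.84% of all genes. There PLXNB3 was 0.14, NTNG2 0.21, EPHA4 -0.044, SEMA4F 0.30 and EPHA6 -0.26. Without the 6 libraries under 6 M reads 7 members did (8.33% of all genes). There NTNG2 was 0.12, EPHA3 -0.24 and SEMA4F 0.26. Among LD animals alone (4 against 3) 3 members did (4.49% of all genes). Without LD animal 3 the count was 7 (7.46% of all genes).

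**Figure D4:**
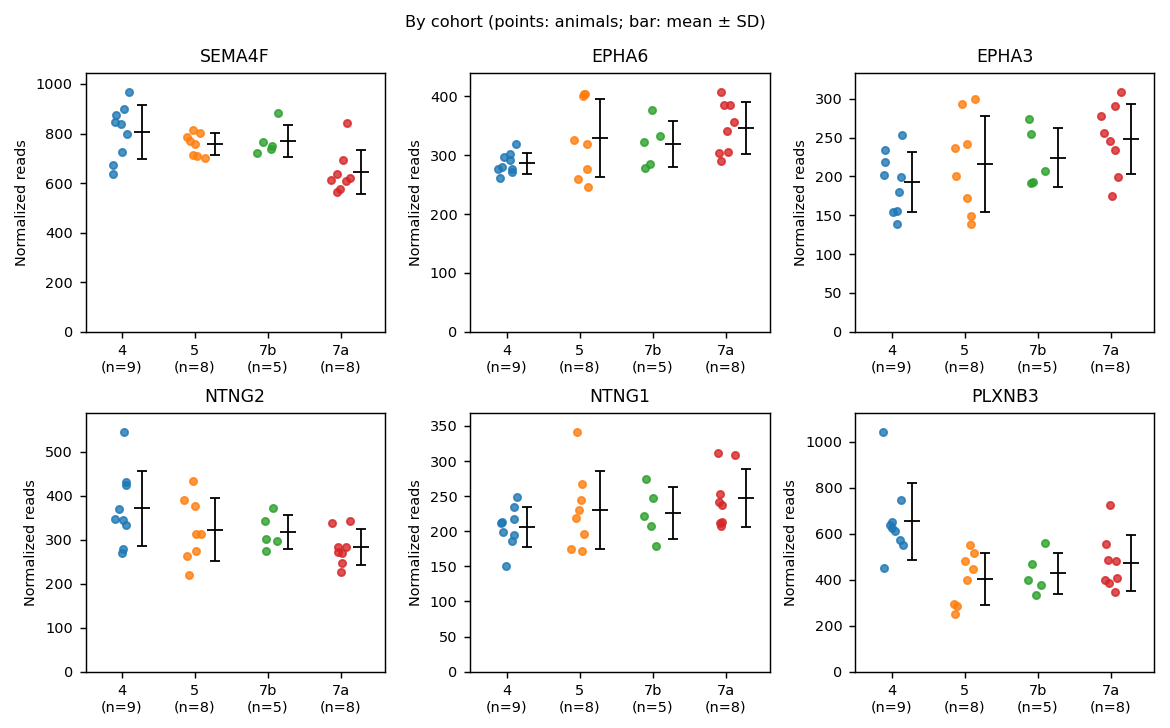
Normalized reads of SEMA4F, EPHA6, EPHA3, NTNG2, NTNG1 and PLXNB3 in each animal, by cohort, with the mean and SD as bars; each vertical axis starts at 0. SEMA4F has its lowest median in cohort 7a, EPHA6 lies in a narrow band in cohort 4, around a median of 279, and cohorts 4 and 7a overlap in every panel.

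Single exons of the members were tested for use relative to the other exons of their gene. None of 871 member exons passed an adjusted p of 0.05 in any of 3 comparisons (limma, over 118342 exons, none of which passed either). At an unadjusted p under 0.05 there were 40 member exons in VHD against LD (4.59% of member exons, against 3.68% of all exons). The trend gave 51 (5.86% against 4.54%) and any cohort 33 (3.79% against 4.34%). Positions and chromosomes are as the exon names give them, on a genome build that no source used here names. That build splits chromosome 2 into 02a and 02b, and its numbering differs from RefSeq's for the rhesus macaque. Exons are counted by position. The lowest p in VHD against LD was that of exon 15 of 26 of ROBO2 (chromosome 3, 195976093 to 195976259). Its level relative to the other exons was -4.99 ± 0.24 in VHD and -4.73 ± 0.15 in LD animals (log2, SD). The difference was -0.45 ± 0.14 (p = 0.0036, adjusted p = 1.0, limma). Next was exon 4 of 14 of SEMA4A (chromosome 1, 130333538 to 130333636), at -3.95 ± 0.12 in VHD and -4.38 ± 0.43 in LD animals. Then came exon 14 of 17 of SEMA3A (chromosome 7, 109907432 to 109907589), at -4.66 ± 0.61 in VHD and -4.42 ± 0.53 in LD animals. With cohort in the model their differences were 0.59 ± 0.18 and -0.87 ± 0.31. The SEMA3A exon held few reads, with means of 2.64 in VHD and 2.84 in LD animals on the log2(value + 1) scale. The same 3 exons had the lowest p over the trend. Across cohorts the lowest were exon 4 of ROBO2 (chromosome 3, 195917787 to 195917992, p = 0.00387), exon 15 of SEMA3A (chromosome 7, 109911390 to 109911457, p = 0.00548) and exon 5 of SEMA4A (chromosome 1, 130333869 to 130333974, p = 0.00735), each with an adjusted p of 1.0 (limma). ROBO2 exon 4 stood at -4.62 in cohort 7b, and the means of the other cohorts lay between -5.01 and -4.96. Exon 15 of SEMA3A held few reads as well, with category means from 2.17 to 2.81 on the log2(value + 1) scale.

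Other genes of the guidance pathways were counted in the same comparisons. Of 30 tested genes among other cues and coreceptors, which include the repulsive guidance molecules, Nogo receptors and FLRT proteins, 16 lay above 0 in VHD against LD, with a median of 0.0082, and 1 had an unadjusted p under 0.05, against 3.5% of all genes. Of 58 intracellular effectors such as the collapsin response mediators, 23 lay above 0, with a median of -0.020, and 0 did. MAG, a myelin protein that binds the Nogo receptors, is in the list of cues and also among the oligodendrocyte markers. In cohort 4 against 7a the counts were 4 of 30 and 4 of 58, against 9.15% of all genes, and none in either list passed the adjusted test (limma).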

How the data were processed

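Total RNA of dissected area 32 was sequenced from 30 male animals, 1 library each; the protocol speaks of 31 animals, of which the authors removed 1 outlier. Per the labels, libraries were stranded and depleted of ribosomal RNA. CASAVA, FastQC, STAR 2.3.0e and edgeR are named in the submitters' processing notes; genome build, annotation, counting program and its use of strand are not stated there, so reads of overlapping or antisense genes cannot be told apart. The deposited gene and exon values are a signal, upper-quartile normalized reads made by the authors. Dividing by the value of 1 read (0.656 to 2.07) gave whole numbers for 100% of the gene values (within 0.01) and depths of 4.39 to 13.99 M reads. The 12935 of 15521 genes that reached 10 in 6 or more libraries were fitted as log2(value + 1) with limma 3.58.1 (lmFit, eBayes with a trend) in R 4.3.3, with category and cohort, and p-values adjusted by Benjamini-Hochberg over all tested genes within a comparison; folds on this scale understate low genes. edgeR 4.0.16 (quasi-likelihood, TMM) on the recovered reads was an alternative. Exon shares, log2(exon + 1) minus log2 of the gene's other exons + 1, were fitted the same way with 1 variance per exon. Members, lists and named genes were chosen with earlier results of these data known. The named genes are those of lowest p in each direction (4 in VHD, trend and cohort 4 against 7a, 3 in HD and BD, 4 over any category or cohort), the highest and lowest per kilobase of each family, the exons of the 3 lowest p, and a list of well-known members. The scripts were tested on simulated data, and the alternatives are in the closing section.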

Additional observations from a re-analysis of the deposited data

Results flagged for a closer look

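In 97 groups of 5 to 10 animals, checked for a highest or lowest animal far from the rest, 5 stood apart on the log2(value + 1) scale. About 1 in 20 groups does so by chance. ROBO4 was lowest in LD animal 4, at 5.617, with the next LD animal at 6.131. SEMA3D was lowest in BD animal 6, at 3.741, with the next at 5.464. UNC5B was lowest in LD animal 1, at 6.418, with the next LD animal at 7.135. UNC5D was lowest in HD animal 5, at 9.744, with the next at 10.16. SEMA4F was highest in 1 cohort 7b animal, LD animal 10, at 9.789, with the next at 9.579.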

How the results depend on the processing

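The counts of members past an adjusted p of 0.05 stayed at 0 under every alternative tried: pseudocounts of 0.25 and 4, no filter or a minimum of 100 reads, median-of-ratios scaling, array weights, terms for library set, depth or marker component, marker lists added after seeing the data, edgeR, no cohort or category term, single cohorts, and each animal left out; the lowest adjusted p of any member was 0.0554, for cohort 4 against 7a without LD animal 5. Of 61 named results, 2 turned. SEMA3A in VHD against LD was -0.024 within cohort 7a. SEMA3D in BD against LD was 0.048 within cohort 4, which does not hold BD animal 6. Without that animal the SEMA3D difference over all cohorts was -0.0035. The causes were not tested. Counts at an unadjusted p under 0.05 moved more. The share of all genes, in brackets, mostly moved with them. With array weights they were 5 in VHD (8.09%), 3 in BD (10.6%), 9 over any category (17.4%) and 10 over the trend (14.3%). Without a cohort term they were 6 in VHD (5.78%), 7 over any category (9.05%) and 6 over the trend (11.3%). Within cohort 7a the VHD count was 6 (5.6%), and without the category term cohort 4 against 7a gave 17 (13.6%). With the marker component it was 1 for cohort 4 against the others (4.93%) and 3 over any cohort (6.59%). Leaving out each animal gave 0 to 4 in VHD, 4 to 11 in HD, 0 to 1 in BD, 1 to 6 over any category, 0 to 5 over the trend, 4 to 11 over any cohort, 7 to 15 for cohort 4 against 7a and 7 to 13 against the others. The VHD count was 0 without HD animal 7 or LD animal 2, 1 without HD 2, LD 4, 5, 6, 8 or 10 or VHD 1, 2 or 6, and 4 without VHD 5. The HD count was 4 without HD 7 and 5 without LD 5, LD 8, VHD 2 or VHD 4. Without LD 3 both counts of cohort 4 were 7. Over any cohort it was 4 without HD 3 and 11 without HD 6. The trend count was 0 without HD 7, 1 without LD 2 or VHD 2, and 5 without BD 3, HD 4, LD 1, LD 4, VHD 4 or VHD 5. The BD count was 1 without BD 3, BD 7, LD 2 or LD 3. Over any category it was 1 without BD 6, HD 4, HD 7, LD 8 or VHD 4, 4 without LD 10, 5 without BD 7 and 6 without BD 1. No paired analysis was possible because the labels give each library its own number and no number is shared between groups. Depth limits the low members, NTN5 and EFNA4 above all, and 4 VHD animals came from a cohort with no LD animal.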
